A study of Mus musculus with 21 samples.

Results

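The genes described here encode glycoproteins and proteoglycans that cells secrete into the space around them: the thrombospondins Thbs1 and Thbs2, fibronectin (Fn1), Sparc, biglycan (Bgn), fibrillin 1 (Fbn1), follistatin-like 1 (Fstl1), periostin (Postn), tenascin C (Tnc) and fibulin 2 (Fbln2). These 10 genes were chosen by name, with earlier results of these data known, and every probe set annotated to a member symbol alone was taken. This gave 20 probe sets of 45037, for 9 of the 18193 genes with such a probe set. Fbn1 had no probe set with its symbol in the annotation used, so no value is given for it, and 1 probe set shared by Thbs1 and a second gene was left out.

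RNA came from mice lacking cystatin B (Cstb-/-), a cytoplasmic inhibitor of lysosomal cysteine proteases whose loss models the progressive myoclonus epilepsy of Unverricht and Lundborg. The knockout is carried in every cell from conception, with the allele Cstb tm1Rm on the 129SvJ background, and controls were wild type littermates. Whole cerebella were taken at postnatal day 7 (P7, 4 Cstb-/- and 4 wild type arrays) and postnatal day 30 (P30, 3 and 3), with no treatment named in the labels. Granule cell cultures were made from cerebella of P5 pups after removal of the meninges, received 10 µM AraC, which blocks DNA synthesis and so the growth of dividing cells, and were harvested after 2 days in vitro (3 Cstb-/- and 4 wild type arrays). At P7, Cstb-/- arrays 1, 2 and 3 were labelled male and array 5 female. Wild type array 3 was labelled male and arrays 1, 2 and 4 female. Xist and Eif2s3y matched these P7 labels, so the P7 genotypes were uneven in sex. In the cultures each genotype had arrays labelled male and arrays labelled female. At P30, 1 Cstb-/- array was labelled female although the methods give males at that age. On this array Xist and Eif2s3y lay within the range of the male-labelled P30 arrays, so its label was not borne out. The labelled sex was not borne out by Xist and Eif2s3y on 4 of the 7 culture arrays (Cstb-/- 1 and 2, wild type 7 and 8).

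The matrix between brain cells differs from that of connective tissue: it is poor in fibrillar proteins, and genes such as Fn1, Bgn and Postn are used mainly by the meninges, blood vessels and their associated fibroblasts. Thrombospondins and Sparc are matricellular proteins, which bind to the matrix and to cell surface receptors and act as signals rather than as building blocks. Immature astrocytes secrete thrombospondins, which promote the formation of synapses through the calcium channel subunit Cacna2d1, while Sparc restrains it and Tnc, made by Bergmann glia and immature astrocytes, lines the paths of migrating granule neurons. Fibronectin, fibulins and fibrillin form the fibres on which integrins pull, and biglycan binds collagen and TGF-beta.

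All values are log2 signals whose median was 0 for each probe set within an experiment, so a level on the array is not kept, and whether a gene was present or absent cannot be read. Each value is given relative to the mean of the wild type arrays of the same experiment. Because the RNA is from bulk tissue or cultures, fewer cells of a type and less RNA per cell cannot be told apart. A probe set was called when the difference reached 1.3-fold and its adjusted p was below 0.05 in the cerebella or below 0.01 in the cultures, by limma with Benjamini-Hochberg adjustment over all 45037 probe sets. Cstb itself fell in each experiment on both of its probe sets, by 3.1 and 2.31 at P7, by 2.7 and 2.77 at P30 and by 2.08 and 1.86 in the cultures on the log2 scale, which checks the genotype labels.

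In the granule cell cultures, 7 of the 9 measured genes rose in Cstb-/-: Thbs1, Thbs2, Fn1, Fstl1, Postn, Bgn and Fbln2. They did so on 12 of 20 probe sets, beside 2.07% of all probe sets called higher, and no member probe set was called lower, beside 0.469%. By gene, the share called higher on at least 1 probe set was 3.91% over the whole array. The rises lay between 0.95 (Bgn 1437889_x_at) and 2.66 (Thbs1 1460302_at) on the log2 scale. Sparc and Tnc were not called. Of the 20 member probe sets, 18 had a higher Cstb-/- mean (45.5% of all probe sets), and the median difference was 1.3 on the log2 scale, beside -0.02 over all probe sets. In 17 of the 20 every Cstb-/- culture lay above every wild type culture, which was so for 13.4% of all probe sets, and in 1 every Cstb-/- culture lay below (9.33% of all).

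**Figure D1:**
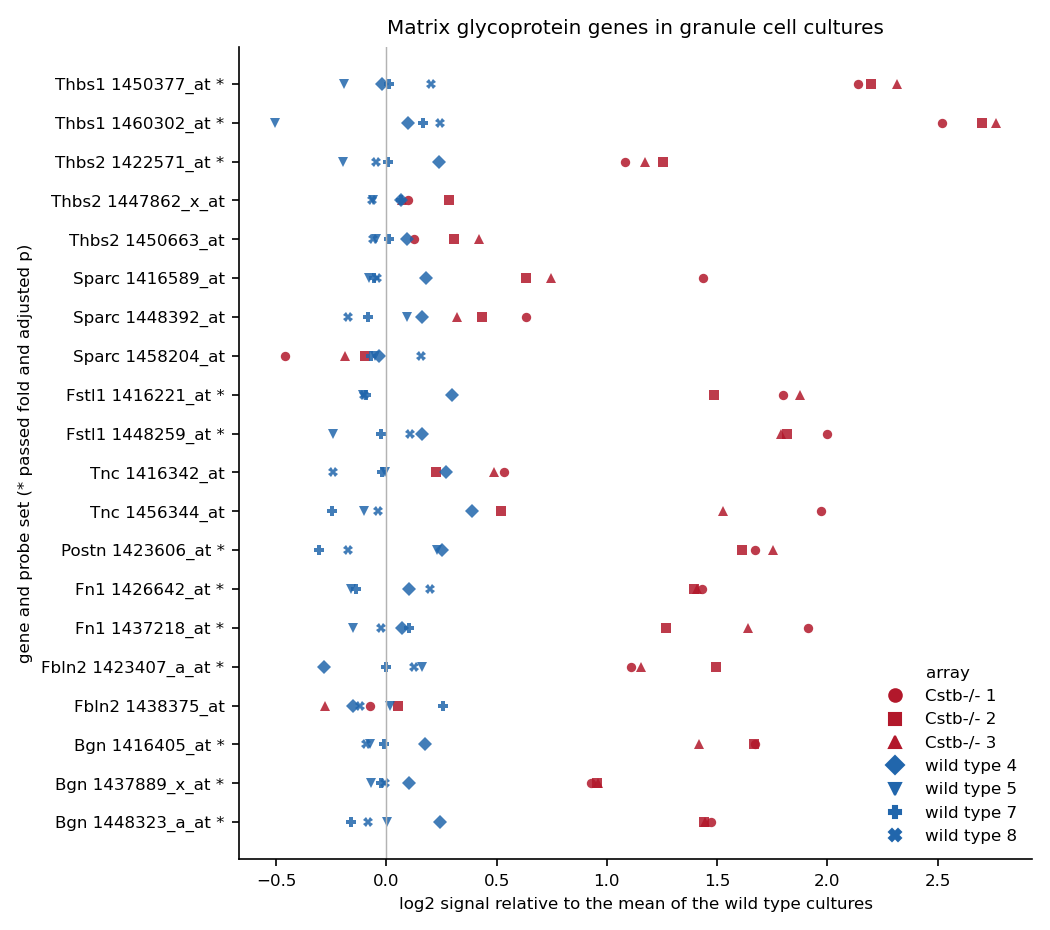
Log2 signal of each member probe set on the 7 granule cell culture arrays, relative to the wild type mean (x axis, log2), with 1 row per probe set, a red symbol for each Cstb-/- array and a blue one for each wild type array, and an asterisk at the 12 called probe sets. On each called row the 3 Cstb-/- arrays sit together to the right of the 4 wild type arrays, with Thbs1 farthest, between 2.14 and 2.77, while the Tnc 1456344_at row is spread from 0.52 to 1.97.

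Among the matricellular genes, Thbs1, which activates latent TGF-beta and binds CD47 and CD36, showed the largest difference of all members. On probe set 1460302_at the Cstb-/- cultures were at 2.52, 2.70 and 2.77 and the wild type cultures at 0.10, -0.50, 0.17 and 0.24, in the order of their numbers. The groups were more than 2 log2 units apart, and wild type culture 5 was the lowest. The difference was 2.66 (SE 0.18, limma adjusted p = 0.000155), a fold of 6.33. The second Thbs1 probe set, 1450377_at, gave 2.14, 2.20 and 2.31 in Cstb-/- against -0.02, -0.19, 0.01 and 0.20, a difference of 2.22 (SE 0.10, adjusted p = 3.66e-05).

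Thbs2, its closest relative, rose on 1 of 3 probe sets. On 1422571_at the Cstb-/- cultures were at 1.08, 1.25 and 1.17 and the wild type cultures at 0.24, -0.20, 0.01 and -0.05. The groups did not overlap, and the difference was 1.17 (SE 0.11, adjusted p = 0.000853), a fold of 2.25. The other Thbs2 probe sets differed by 0.28 (1450663_at, SE 0.09, adjusted p = 0.0780) and 0.15 (1447862_x_at, SE 0.08, adjusted p = 0.240), so the probe sets of this gene disagreed in size.

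Sparc, a collagen-binding protein, was not called, and its probe sets did not point the same way. On 1416589_at the Cstb-/- cultures were at 1.43, 0.63 and 0.75 and the wild type cultures at 0.18, -0.08, -0.06 and -0.04. These did not overlap, but Cstb-/- culture 1 stood well above the other two, and the difference of 0.94 (SE 0.18) had an adjusted p of 0.0183. On 1448392_at the difference was 0.46 (SE 0.11, adjusted p = 0.0373). On 1458204_at it was -0.25 (SE 0.11, adjusted p = 0.150), with all Cstb-/- cultures below all wild type cultures.

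Fstl1, a secreted Sparc relative that binds BMP and TGF-beta family ligands, rose on both probe sets. On 1448259_at the Cstb-/- cultures were at 2.00, 1.82 and 1.79 and the wild type cultures at 0.16, -0.24, -0.02 and 0.11. All Cstb-/- cultures were more than 1.5 log2 units above the highest wild type culture, and the difference was 1.87 (SE 0.11, adjusted p = 0.000107), a fold of 3.65. On 1416221_at it was 1.72 (SE 0.13, adjusted p = 0.000376).

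Tnc was the most variable member. On 1456344_at the Cstb-/- cultures were at 1.97, 0.52 and 1.53 and the wild type cultures at 0.39, -0.10, -0.25 and -0.04. Cstb-/- culture 2 lay close to wild type culture 4, and the difference of 1.34 (SE 0.31, adjusted p = 0.0335) missed the threshold of the cultures. It was called without Cstb-/- culture 2 (1.75, adjusted p = 0.00333), with array weights (1.52) and in 1 fit over all groups. On 1416342_at the groups overlapped and the difference was 0.42 (SE 0.13, adjusted p = 0.0765).

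Postn, a matricellular protein of the fasciclin family that is typical of fibroblasts, was measured by 1 probe set. The Cstb-/- cultures were at 1.67, 1.61 and 1.76 and the wild type cultures at 0.25, 0.23, -0.30 and -0.18. The Cstb-/- cultures were nearly alike and did not overlap with the wild type, whose 4 arrays were more spread. The difference was 1.68 (SE 0.15, adjusted p = 0.000625), a fold of 3.21.

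Of the fibre-forming glycoproteins, Fn1, the main ligand of integrins in provisional matrix, rose on both probe sets. On 1437218_at the Cstb-/- cultures were at 1.91, 1.27 and 1.64 and the wild type cultures at 0.07, -0.15, 0.10 and -0.02. The groups were apart by more than 1 log2 unit, and the difference was 1.61 (SE 0.15, adjusted p = 0.000777), a fold of 3.04. On 1426642_at the 3 Cstb-/- cultures lay between 1.39 and 1.43, a narrower range than on 1437218_at, and the difference was 1.41 (SE 0.10, adjusted p = 0.000258).

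Fbln2, which binds fibronectin, nidogen and fibrillin, rose on 1 of 2 probe sets. On 1423407_a_at the Cstb-/- cultures were at 1.11, 1.5 and 1.16 and the wild type cultures at -0.28, 0.16, -0.0027 and 0.12, with no overlap. The difference was 1.25 (SE 0.14, adjusted p = 0.00182), a fold of 2.39. The call was lost without Cstb-/- culture 3 (adjusted p = 0.0114) or without wild type culture 7 (adjusted p = 0.0119), with nearly the same difference. On 1438375_at the groups overlapped at -0.10 (SE 0.12, adjusted p = 0.589).

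Bgn, a small proteoglycan with leucine-rich repeats, was the only member that rose on 3 probe sets. On 1416405_at the Cstb-/- cultures were at 1.67, 1.67 and 1.42 and the wild type cultures at 0.18, -0.07, -0.01 and -0.09. No arrays overlapped, and the difference was 1.59 (SE 0.10, adjusted p = 0.000129), a fold of 3.00. The other Bgn probe sets gave 1.45 (1448323_a_at, SE 0.10) and 0.95 (1437889_x_at, SE 0.07), and on these the Cstb-/- cultures differed by less than 0.05 among themselves.

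Averaged over the 9 genes, the Cstb-/- cultures stood at 1.3, 1.16 and 1.25 and the wild type cultures at 0.13, -0.06, -0.05 and -0.02. The 12 calls were all kept without Cstb-/- culture 1 or 2 and without wild type culture 4, 5 or 8. Leaving out the 4 arrays whose sex genes conflicted with their labels leaves 1 Cstb-/- culture (3) against 2 wild type cultures (4 and 5), so the spread was taken from a fit over all groups, which assumes that the lone culture varies like the other groups. The differences there carry no replicate check of their own: Thbs1 1460302_at and the other called probe sets stayed above the fold, and Sparc 1448392_at was at 0.19. With the methods' t-test, adjusted over all probe sets, 2 of the 12 remained (Thbs1 1450377_at and Bgn 1437889_x_at), beside 0.0622% of all probe sets. With the same test adjusted over only the probe sets that passed the fold, all 12 remained, beside 6.35%. This filter uses the tested difference itself, so adjusted p-values after it are too small.

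To show what lies in front of members that rose together, the bases before the RefSeq start site (assembly GRCm38.p6) are printed for Thbs2, Fstl1 and Bgn, together with Sparc, which was not called in the cultures. The promoter table held 8 of the 10 genes, with 10 start sites, and had no entry for Thbs1 or Fn1. Each sequence is 250 bases long, runs 5′ to 3′ on the strand of the gene and ends at the base before the start site. Capitals mark matches to the Sp1 motif GGGCGG or the TATA box TATAAA on either strand.

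Thbs2, chr17:14694263-14694512, minus strand: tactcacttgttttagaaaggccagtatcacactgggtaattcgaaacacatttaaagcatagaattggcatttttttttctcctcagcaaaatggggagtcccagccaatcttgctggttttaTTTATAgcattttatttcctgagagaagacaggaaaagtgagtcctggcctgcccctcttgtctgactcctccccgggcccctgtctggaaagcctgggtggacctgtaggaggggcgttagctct
Fstl1, chr16:37776805-37777054, plus strand: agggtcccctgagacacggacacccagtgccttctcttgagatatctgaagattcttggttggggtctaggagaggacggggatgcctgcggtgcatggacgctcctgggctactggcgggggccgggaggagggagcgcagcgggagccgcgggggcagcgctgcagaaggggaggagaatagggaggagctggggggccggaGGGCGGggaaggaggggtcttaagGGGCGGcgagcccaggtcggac
Bgn, chrX:73483351-73483600, plus strand: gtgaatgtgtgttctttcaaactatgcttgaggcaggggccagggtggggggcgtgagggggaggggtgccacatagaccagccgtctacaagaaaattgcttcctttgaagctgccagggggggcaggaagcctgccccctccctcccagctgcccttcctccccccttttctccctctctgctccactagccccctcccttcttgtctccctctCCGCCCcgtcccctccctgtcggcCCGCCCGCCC
Sparc, chr11:55420081-55420330, minus strand: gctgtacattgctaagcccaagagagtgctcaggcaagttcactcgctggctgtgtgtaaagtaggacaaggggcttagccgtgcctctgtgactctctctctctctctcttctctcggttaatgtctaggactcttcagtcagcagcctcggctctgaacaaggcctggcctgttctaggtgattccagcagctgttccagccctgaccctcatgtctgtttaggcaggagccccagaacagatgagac

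The printed windows had little in common. Thbs2 had 1 match to the TATA box letters, far from the start site and on the opposite strand. Fstl1 had 2 matches to GGGCGG, Bgn had 3, of which the last 2 overlap, and Sparc had none. Postn and Fbln2 also rose but are not printed. Fbln2 had 1 match to GGGCGG. Postn had no match before start site 1, and TATAAA at -26 to -21 before start site 2. Over the members, 6 of 10 windows (5 of 8 genes) held GGGCGG, beside 32.7% of 32851 promoter windows of the same length, and 4 of 10 (3 of 8 genes) held TATAAA, beside 12.4%. The start sites of 1 gene share bases, so the windows are not independent. The AP-1 motif TGANTCA, found in 6.75% of all windows, and the TEAD motif GGAATG, found in 12.6%, were in none of the 10, searched on both strands. A match is a description of letters and not a binding site, and longer stretches and enhancers were not searched.

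The neighbours of these genes in the pathway were taken from named lists. Among other thrombospondins and proteins with thrombospondin repeats, such as Thbs3, Thbs4 and Comp, 0 of 10 genes were called in the cultures, and 4 had a probe set at an unadjusted p below 0.05, beside 45.3% of all genes. Thbs3 differed by 0.29 (SE 0.10, adjusted p = 0.0908) and Thbs4 by -0.13 (SE 0.16, adjusted p = 0.581). Of 11 thrombospondin receptors and partners, 1 rose and 1 fell, beside 3.91% and 0.385% of all genes. Calr, the chaperone calreticulin, which with Lrp1 forms a receptor for thrombospondin on the cell surface, rose by 0.71 on 1417606_a_at (SE 0.08, adjusted p = 0.00242). The other Calr probe sets gave 0.49 and 0.52 and were not called. Cacna2d1, the calcium channel subunit through which thrombospondins act on synapses, fell by 1.56 on the log2 scale on 1441608_at (SE 0.13, adjusted p = 0.000504). This rests on 1 of its 5 probe sets, and the others lay between -0.36 and 0.31 and were not called. The receptors Cd47 (5 probe sets) and Cd36 (3 probe sets) were not called, the latter with 0.43 (SE 0.10, adjusted p = 0.0281) on 1450883_a_at.

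Other matrix genes were called higher more widely, beside 3.91% of all genes. Of 17 further matricellular genes 5 rose, led by Ccn2 (3.02, SE 0.13) and Ccn1 (1.89, SE 0.13), both targets of YAP and of TGF-beta, and by Igfbp7 (1.55, SE 0.13). Of 14 fibrillar and fibril-associated collagens 8 rose, with Col1a1 (3.59, SE 0.19), Col3a1 (3.49, SE 0.18) and Col1a2 (3.41, SE 0.11) above every member in size. Of 14 genes that crosslink or process matrix 4 rose, among them Lox (2.51, SE 0.09), which crosslinks collagen and elastin, Pcolce (2.26, SE 0.13), which helps to trim procollagen, and Loxl1 (1.54, SE 0.18). Among 15 genes of elastic fibres and fibulins 4 rose, including Efemp1 (1.42, SE 0.15), Fbln5 (0.98, SE 0.10) and Mfap4 (0.92, SE 0.13).

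Basement membrane genes rose in 4 of 18, with Col4a2 (1.77, SE 0.11), Col4a1 (1.59, SE 0.10) and Nid2 (1.33, SE 0.12), and matrix proteoglycans in 3 of 15, with Lum (1.94, SE 0.12), Dcn (1.53, SE 0.16) and Vcan (1.12, SE 0.15). On the receiving side, 3 of 22 integrins and matrix receptors rose: Itgb1 (1.03, SE 0.16), on 1 of its 6 probe sets, Sdc2 (1.02, SE 0.13) and Itga1 (0.69, SE 0.09). Sdc2 was not called on 1448545_at (0.43) or 1431474_at (-0.05), nor was Itga1 on 1439713_at (0.01). Of 14 TGF-beta ligands, receptors and targets 2 rose, Tgfb3 (0.83, SE 0.12) and Tgfbr1 (0.58, SE 0.08). No gene of these lists other than Cacna2d1 was called lower.

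**Figure D2:**
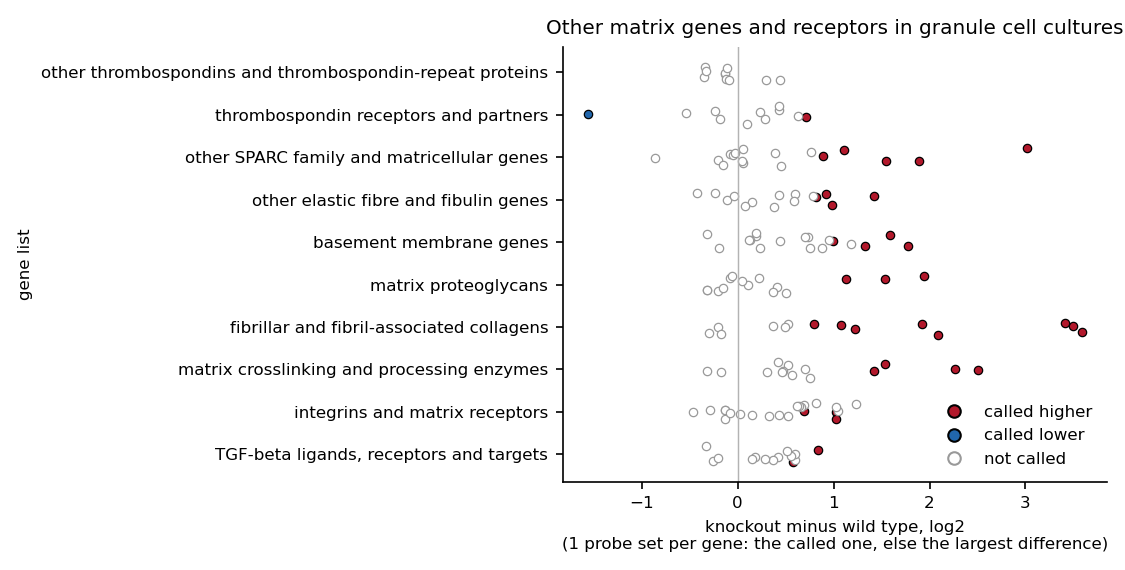
Difference between Cstb-/- and wild type cultures (x axis, log2) for every measured gene of 10 lists of other matrix genes and receptors (rows), with 1 point per gene, red where called higher, blue where called lower and open where not called. The list of other thrombospondins holds no called gene, the collagen list reaches farthest at 3.59, and Cacna2d1 at -1.56 is the blue point.

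Markers of other cells moved with the members in the cultures. Of 18 markers of meningeal and perivascular fibroblasts 10 rose, Col1a1, Col3a1 and Col1a2 the most, and their mean per array was 0.81 to 0.85 in Cstb-/- and -0.05 to 0.08 in wild type. For pericytes and smooth muscle cells, 3 of 14 markers rose, Tagln (2.39), Acta2 (2.25) and Pdgfrb (1.97), with means of 0.29 to 0.37 against -0.04 to 0.07. The list was split, since 6 of its 14 genes had a mean difference below 0, among them the pericyte genes Rgs5 (-0.37, SE 0.22, adjusted p = 0.267) and Abcc9 (-0.33, SE 0.16, adjusted p = 0.177), which were not called. Of 13 markers of astrocytes and Bergmann glia 3 rose, Gja1 (1.67), Aldh1l1 (0.76) and Aldoc (0.64), with means of 0.39 to 0.60 against -0.09 to 0.21. In each of these lists the array means of the Cstb-/- cultures lay above those of the wild type cultures, and 4 of 18 fibroblast and 1 of 13 astrocyte markers had a mean difference below 0. Of the fibroblast markers, Col1a1, Col3a1 and Col1a2 are also in the collagen list, and Lum and Dcn are among the proteoglycans.

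Markers of endothelial cells (0 of 13 called, means of -0.16 to -0.05 against -0.09 to 0.10), of microglia (0 of 12) and of choroid plexus (0 of 12) were not called in the cultures. Olig2 (1.00) alone rose among 13 oligodendrocyte markers, of which 9 had a mean difference below 0. The means of that list were -0.23 to 0.21 in Cstb-/- and -0.04 to 0.05 in wild type. Of 13 granule neuron markers 1 fell, Fat2 by 0.62 on the log2 scale, while 6 had a mean difference above 0 and 7 below. The means were -0.198 to -0.081 in Cstb-/- and -0.079 to 0.048 in wild type, close together but without overlap. Of 8 Purkinje cell markers Rora fell by 1.17 on 1 of its 9 probe sets. Yet 7 of the 8 had a mean difference above 0, and the means were 0.05 to 0.19 in Cstb-/- against -0.04 to 0.07 in wild type. Since levels are not kept, which of these markers are near background in the cultures cannot be read, nor can the label of granule cells be checked against the presence of its markers. The part of fibroblasts, smooth muscle cells or glia in the rise of the matrix genes was not tested.

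**Figure D3:**
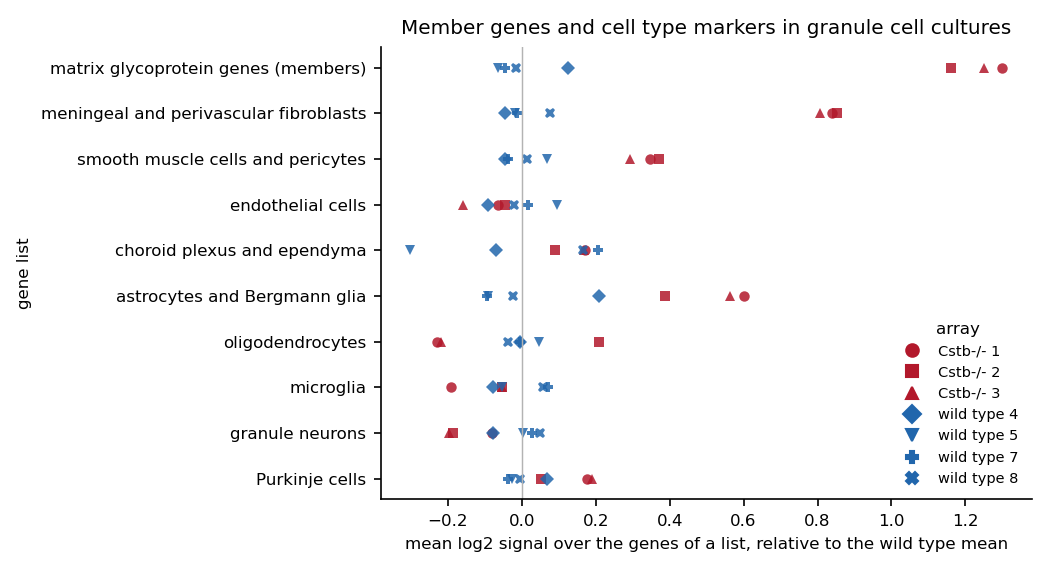
Mean log2 signal over the 9 measured member genes and over each list of cell type markers (rows) on the 7 culture arrays, relative to the wild type mean (x axis, log2), red for Cstb-/- and blue for wild type, with 1 symbol per array. The members lie between 1.16 and 1.3 in Cstb-/-, the fibroblast markers between 0.81 and 0.85, and the endothelial markers between -0.16 and -0.05.

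The genes whose pattern over the 21 arrays was most like the mean of the members were Col1a2 (Pearson r = 0.984), Ccn2 (0.984), Ccnb2 (0.982), Col3a1 (0.982) and Cdc20 (0.981). Ccnb2, a mitotic cyclin, rose by 2.34 (SE 0.15) in the cultures, and Cdc20, an activator of the anaphase-promoting complex, by 1.82 (SE 0.10). The points share arrays and the split between the culture groups, which sets most of these values. Over the 14 cerebellum arrays alone r was 0.69 for Col3a1, 0.63 for Col1a2, 0.43 for Cdc20, 0.40 for Ccnb2 and 0.25 for Ccn2.

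In the P7 cerebellum no member was called in either direction, beside 0% of all probe sets called higher and 0.00666% called lower by limma. There were 3 member probe sets at an unadjusted p below 0.05, all lower, beside 4.99% of all probe sets at that p and lower. The differences ranged from -0.43 to 0.08 with a median of -0.10 (all probe sets 0.01), and 14 of 20 were below 0, beside 46.3%. All 20 were smaller in size than the smallest rise called in the cultures.

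Postn had the lowest value. The P7 Cstb-/- arrays 1, 2, 3 and 5 were at -0.33, -0.30, -0.74 and -0.33 and the wild type arrays at 0.12, -0.08, -0.03 and -0.01. Every Cstb-/- array was below every wild type array, and array 3 stood apart from the other Cstb-/- arrays. The difference was -0.43 (SE 0.10, adjusted p = 0.292), and -0.32 without array 3. With the methods' t-test adjusted over only the probe sets that passed the fold, Postn was the 1 member called lower (adjusted p = 0.0468), beside 18.5% of those probe sets. That filter uses the tested difference itself, so this adjusted p is too small.

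Fn1 1437218_at was at -0.46, -0.29, -0.23 and -0.09 in Cstb-/- against 0.12, -0.07, -0.05 and -0.0026 in wild type, a difference of -0.27 (SE 0.09, adjusted p = 0.422) with no overlap. Thus 2 of 20 member probe sets had all Cstb-/- arrays below all wild type arrays, beside 2.84% of all probe sets. Bgn 1416405_at differed by -0.20 (SE 0.08, adjusted p = 0.494) and overlapped. Bgn lies on the X chromosome, and the P7 genotypes were uneven in sex. No member was called at P7 with or without the labelled sex as a covariate, so that count cannot show whether sex mattered. Thbs1, which led in the cultures, was at -0.01 (SE 0.12) and 0.02 (SE 0.08) on its probe sets, so the 95% interval of 1460302_at ran from -0.15 to 0.19.

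Markers of other cells also differed between the P7 groups, with none called. The means of the choroid plexus list were -2.33 to -0.46 in P7 Cstb-/- arrays and -0.27 to 0.20 in wild type, with 12 of 12 genes below 0 and 0 called. The means of the fibroblast list were -0.29 to -0.04 against -0.06 to 0.09, with 17 of 18 below 0 and 0 called, and those of the oligodendrocyte list were 0.28 to 0.68 against -0.18 to 0.18. The granule neuron list was at 0.063 to 0.288 against -0.124 to 0.055, with 9 of 13 genes above 0. The fibroblast means overlapped between the genotypes, and those of the choroid plexus, oligodendrocyte and granule neuron lists did not. The collagens had 12 of 14 below 0 and 0 called, and the basement membrane genes 16 of 18 below 0 and 0 called. Both lists were low in the same arrays. Among the basement membrane genes, Nid2 was at -0.63 (SE 0.09, limma adjusted p = 0.0855). The authors list it as lower at P7. The part of attached meninges or choroid plexus in the values of Postn, Fn1 and Bgn was not tested.

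In the P30 cerebellum no member was called, beside 0.138% of probe sets called higher and 0.00666% called lower, and none of the 20 was at an unadjusted p below 0.05, beside 7.72% of all. The differences ranged from -0.13 to 0.35 with a median of 0.05 (all probe sets -0.01). Tnc 1416342_at had the largest, with Cstb-/- arrays at 0.55, 0.36 and 0.13 and wild type arrays at -0.27, -0.08 and 0.35. The groups overlapped through wild type array 3, and the difference was 0.35 (SE 0.16, adjusted p = 0.659, 95% interval -0.02 to 0.71).

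Thbs1 1460302_at was the only member probe set without overlap at P30, at 0.19, 0.12 and 0.11 in Cstb-/- against -0.02, 0.05 and -0.03, where 6.24% of all probe sets had every Cstb-/- array above every wild type array. The difference was 0.14 (SE 0.07, adjusted p = 0.682). Postn, at 0.18, 0.23 and -0.28 against 0.25, 0.02 and -0.27, differed by 0.05 (SE 0.16, adjusted p = 0.968), with array 3 lowest in both genotypes. The same P30 arrays showed called rises elsewhere: 6 of 12 microglia markers, led by Tyrobp (2.21), the astrocyte protein Gfap (2.36) and, among the integrins and matrix receptors, the hyaluronan receptor Cd44 (1.66, SE 0.19, adjusted p = 0.0144). Apart from Cd44, no gene of the matrix and receptor lists was called at P7 or at P30.

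**Figure D4:**
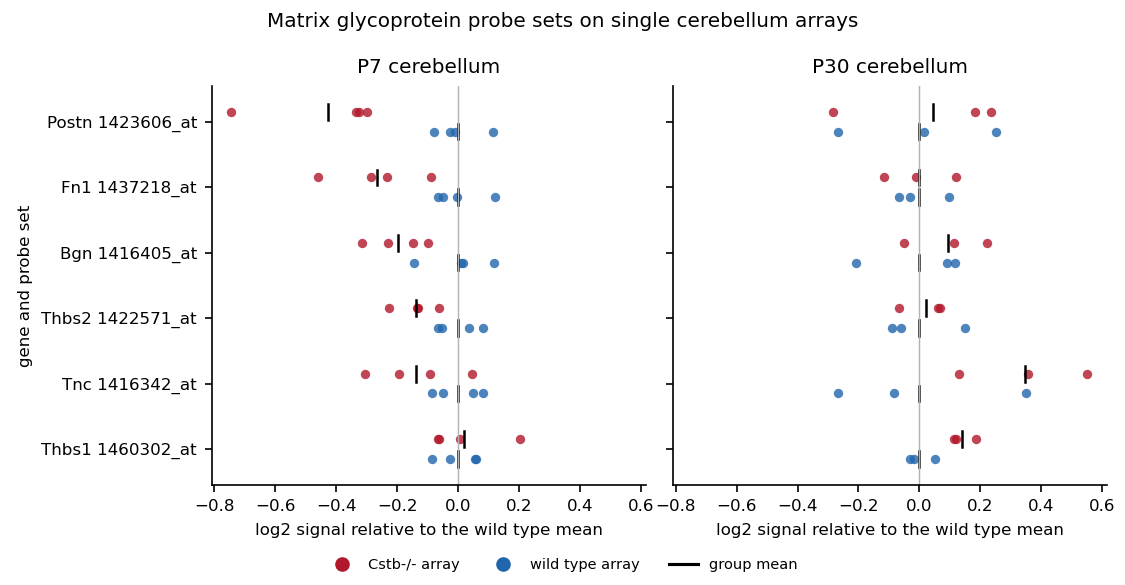
Log2 signal of 6 member probe sets on each P7 (left) and P30 (right) cerebellum array, relative to the wild type mean of that age (x axis, log2), red for Cstb-/-, blue for wild type, with a black bar at each group mean. At P7 the Postn arrays of Cstb-/- lie between -0.74 and -0.30, below the wild type, and at P30 the groups overlap in all rows but Thbs1 1460302_at.

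The knockout effects in the 3 experiments were compared by limma contrasts of the Cstb-/- minus wild type differences in 1 fit over the 6 groups, at an adjusted p below 0.05. The effect in the cultures exceeded that at P7 for 16 of 20 member probe sets in all 9 genes, beside 13% of all probe sets in that direction, and that at P30 for 14 of 20 in all 9 genes, beside 3.91%. For Thbs1 1460302_at the cultures exceeded P7 by 2.64 (SE 0.17, adjusted p = 1.26e-09) and P30 by 2.52 (SE 0.18, adjusted p = 1.21e-08). For Postn they exceeded P7 by 2.11 (SE 0.20) and P30 by 1.63 (SE 0.22), and for Bgn 1416405_at by 1.78 (SE 0.14) and 1.49 (SE 0.15). The contrasts with the cultures share the culture arrays and are not independent.

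Sparc and Tnc, which were not called within the cultures, were among the genes with such a difference. Sparc 1416589_at exceeded P7 by 0.86 (SE 0.20, adjusted p = 0.00484) and P30 by 0.90 (SE 0.21, adjusted p = 0.0156), and Tnc 1456344_at by 1.5 (SE 0.29, adjusted p = 0.00112) and 1.31 (SE 0.31, adjusted p = 0.0151). This fit pools the spread of all 21 arrays. Thbs2 1447862_x_at and 1450663_at, Sparc 1458204_at and Fbln2 1438375_at did not pass in either contrast.

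Between the ages, no member probe set had a different effect at P30 than at P7 (0 of 20, beside 0.124% of all probe sets in either direction), while 4 were at an unadjusted p below 0.05, beside 7.78% of all probe sets. These were Tnc 1416342_at (0.48, SE 0.19, adjusted p = 0.553), Postn (0.47, SE 0.21, adjusted p = 0.616), Bgn 1416405_at (0.29, SE 0.14, adjusted p = 0.639) and Thbs2 1447862_x_at (0.28, SE 0.13, adjusted p = 0.629).

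**Figure D5:**
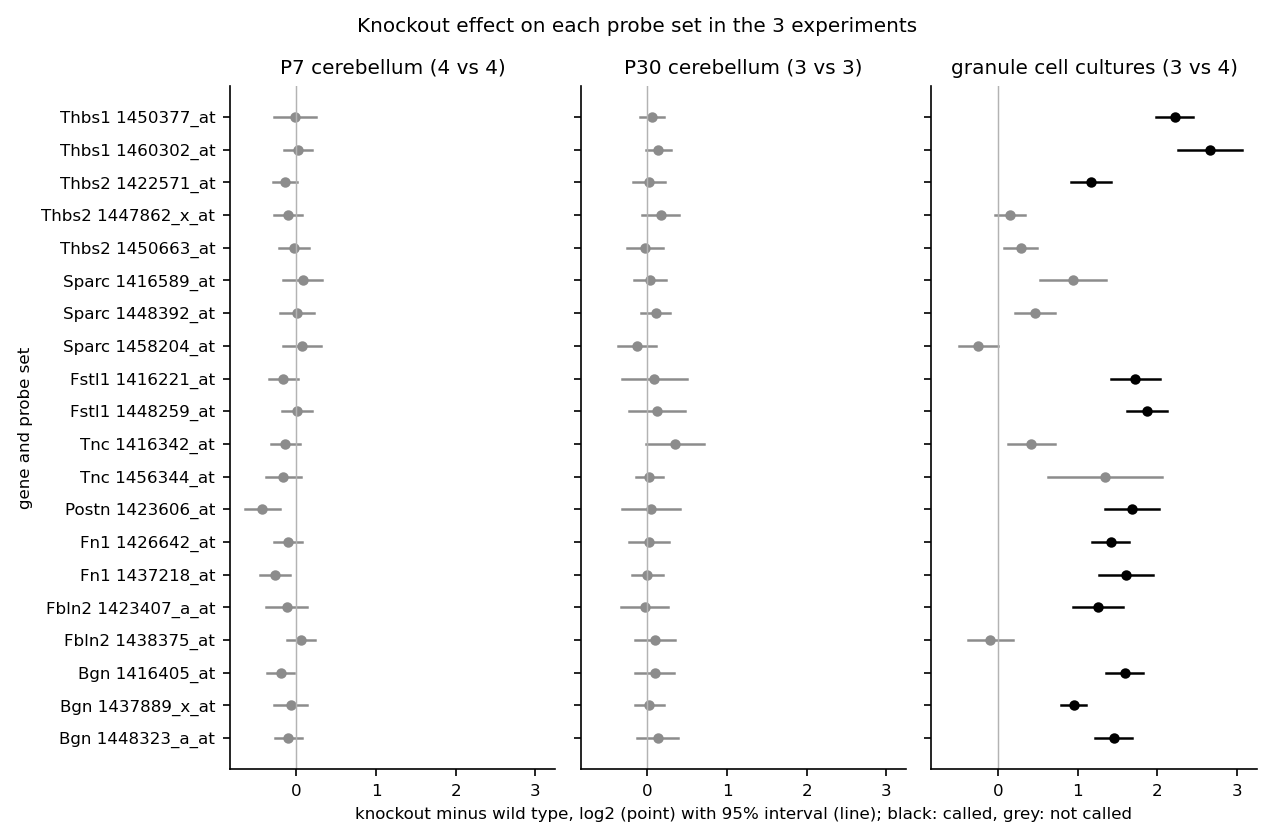
Cstb-/- minus wild type difference of each member probe set (points, log2) with its 95% interval (lines) in P7 cerebellum, P30 cerebellum and granule cell cultures, black where called and grey where not. The cerebellum panels lie between -0.43 and 0.35 with no black point, and the culture panel holds 12 black points between 0.95 and 2.66.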

How the data were processed

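Affymetrix mouse genome arrays had been hybridised with RNA from cerebella at P7 and P30 and from granule cell cultures of both genotypes. The authors state RMA for background adjustment, quantile normalisation and summarisation, followed by division by the median of each gene over the samples. As deposited, each value is a log2 signal, centred at 0 on the median within an experiment (to within 5e-07). The methods give 5 culture arrays per genotype with 1 left out, and 3 Cstb-/- and 4 wild type arrays were analysed here. Equal values on at least 2 arrays occurred in 51.3% of probe sets in the cultures, and among the members only in Thbs2 1447862_x_at. No 2 arrays held the same data. Where nothing states separate litters, p-values measure only the spread between these arrays, and the number of arrays limits the precision.

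Of 45101 probe sets 64 controls were left out. In the platform annotation, 34945 of the 45037 tested carried a single gene symbol, 932 carried several and 9160 none. Cstb-/- was compared with wild type within each experiment by limma 3.58.1 (R 4.3.3; lmFit, eBayes, 2-sided), with Benjamini-Hochberg adjustment over all probe sets and the fold (1.3) and adjusted p thresholds (0.05 in cerebella, 0.01 in cultures) of the methods, which used an equal variance test and a filter on low signals. A gene was called if at least 1 probe set with its symbol alone was called. Differences of effects between experiments were contrasts in 1 fit over 6 groups. The steps were tested on simulated data with planted changes. Tables were handled in Python 3.11.15 with pandas 2.3.3 and drawn with matplotlib 3.10.9, and promoter sequences came from RefSeq (GRCm38.p6).

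The members, gene lists and tests were chosen with earlier results of these data known. The text names the members and, from each list, up to 3 genes with the largest rise and up to 3 with the largest fall among those called, the 5 genes whose pattern was most like the members, and Cstb. A further gene (Thbs3, Thbs4, Comp, Cd47, Cd36, Rgs5, Abcc9) was named after its values were seen. Alternatives tried were the methods' t-test, other thresholds, robust variances, array weights, 1 fit over all groups, a block for the replicate number, the labelled sex as a covariate, leaving out each array, arrays with conflicting sex genes left out, and a gene mean or 1 probe set per gene.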

Additional observations from a re-analysis of the deposited data

Results flagged for a closer look

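In groups of 4 arrays, the lowest or highest array stood apart from the others by Dixon's criterion at the 95% level for 5 of 60 combinations of a member probe set and a group, where chance marks about 1 in 20. At P7, Cstb-/- array 3 was at -0.744 for Postn, with the next array at -0.334, and wild type array 2 was at -0.236 for Sparc 1458204_at. In the cultures, wild type array 4 was high for Sparc 1416589_at (0.179) and for Fstl1 1416221_at (0.298), and wild type array 8 was high for Sparc 1458204_at (0.157). Groups of 3 were not examined in this way.

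The effect of the knockout differed between cultures and cerebella by a limma contrast for every one of the 9 genes. The cultures exceeded P7, in log2, by 2.23 and 2.64 for the Thbs1 probe sets 1450377_at and 1460302_at and by 1.31 for Thbs2 1422571_at. For Sparc they did so by 0.859 (1416589_at) and 0.458 (1448392_at), for Fstl1 by 1.88 and 1.86 (1416221_at and 1448259_at) and for Tnc by 0.554 and 1.5 (1416342_at and 1456344_at). Postn exceeded P7 by 2.11, Fn1 by 1.52 and 1.87 (1426642_at and 1437218_at), Fbln2 1423407_a_at by 1.38, and the Bgn probe sets by 1.78, 1.02 and 1.55 (1416405_at, 1437889_x_at and 1448323_a_at). The smallest of these were Sparc 1448392_at and Tnc 1416342_at, which were also the ones lost when single arrays were left out.

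Against P30, the cultures were higher by 2.15 and 2.52 for Thbs1, by 1.15 for Thbs2 1422571_at, by 0.902 for Sparc 1416589_at, by 1.63 and 1.74 for Fstl1, by 1.31 for Tnc 1456344_at, by 1.63 for Postn and by 1.39 and 1.61 for Fn1, with the probe sets in the same order as against P7. Fbln2 1423407_a_at was higher by 1.29 and Bgn by 1.49, 0.922 and 1.32. The age comparison gave no such probe set.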

How the results depend on the processing

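None of the member results reversed. With the methods' t-test adjusted over all probe sets, the cultures kept 2 of 12 probe sets in 2 genes. With that t-test adjusted over only those that passed the fold, chosen after seeing the data, all 12 were kept. At P7, 1 probe set in 1 gene (Postn, adjusted p = 0.0468) was then called lower, beside 18.5% of these probe sets. The filter uses the tested difference itself, so these adjusted p-values are too small. Array weights gave 1 probe set with a different effect between the ages, Tnc 1416342_at (0.69, adjusted p = 0.0372). Leaving out 1 array at a time gave 11 to 14 called probe sets in the cultures, 14 to 16 for cultures against P7, 14 against P30, and 0 in the cerebella. In the cultures, 12 to 15 probe sets were called under the other settings run on probe sets, leaving aside the fit with a lone Cstb-/- culture. With the replicate number as a block, 0 members were called at P7, at P30 or between the ages. Same-numbered arrays correlated at 0.01 to 0.17 at P7 and at -0.18 to -0.03 at P30. So few values cannot show whether the numbers pair the arrays. No paired analysis was possible in the cultures because the genotypes share no number. A filter on low signals was not run, since levels are not kept, and signal over background cannot be judged for any member.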
